A study of Mus musculus with 16 samples.

Results

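Esm1, Emcn, Egfl7 and Mgp are 4 genes of the vessel wall that were followed in the right kidneys of 5 mice. They were chosen as all probes of the array whose platform annotation names 1 of these genes, which gave 4 probes, 1 per gene, of 20205 probes and 9669 genes named from a single-gene probe. All 4 genes passed the filter on missing values (values required on 3 or more of each mouse's 4 arrays), as did 15715 probes in all. They were picked because earlier work on these same arrays had shown them to vary between kidneys, so their values are a description. Their calls in the fit across all probes are given once, as part of how they were chosen, and support nothing. RNA of the mice W1, W2, W3 and W4, which are wild-type males of a mixed C57BL/6 and 129Sv background aged 88 ± 2 days, was hybridised against RNA of W5, their wild-type male littermate of the same background and age. No mouse was treated. Each of the 4 mice had 4 two-colour arrays, with the mouse in channel 1 on 2 of them and in channel 2 on the other 2, 16 arrays in total. These 4 arrays repeat the hybridisation of 1 kidney, so their spread is technical and says nothing of a population of mice.

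Blood vessels are lined by endothelial cells, which grow and sprout under vascular endothelial growth factor (VEGF) and its receptors and are wrapped by smooth muscle cells and pericytes. The kidney holds several endothelial beds, among them the fenestrated capillaries of the glomerulus and those around the tubules. Esm1 encodes endocan, a proteoglycan secreted by endothelial cells and a marker of sprouting tip cells. Emcn encodes endomucin, a sialomucin on the surface of capillary and venous endothelium. Egfl7 encodes a secreted protein of endothelial cells that takes part in vessel tube formation, and its gene also hosts the microRNA gene Mir126a, whose product is not reported by this probe. Mgp encodes matrix Gla protein, a vitamin K-dependent inhibitor of calcification made by vascular smooth muscle and other cells. In whole kidney RNA, a change in the number of cells of a type and a change in RNA per cell cannot be told apart.

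Each value is the log2 ratio between the mouse and W5, with the sign turned on arrays that held W5 in channel 1. Which channel is the numerator is not given in the sources used here, so the data do not say which kidney had more RNA. The side of W5 where Esm1 of W4 lay is called side A and has positive values, and the opposite, side B, has negative ones. As deposited, like-oriented arrays from separate mice correlated across probes at 0.0150 to 0.386, so none ran clearly against another. Such arrays also share W5 in the same channel. Opposite-oriented arrays of the same mouse correlated at -0.169 to 0.0844, so the orientations mirrored each other weakly at most. Between 80.2% and 91.1% of the probes had a value on an array. Ratios hold no expression level, so the tissue could not be checked against the levels of its markers.

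The sequences just before the annotated starts are shown for Esm1, Emcn and Egfl7, the 3 of the 4 genes matched in the promoter table, to set side by side genes that lay on the same side in W2 and W4. Mgp was not matched. They are the 250 bases before a start in RefSeq, build GRCm38.p6, plus strand. Capitals mark AGGAA on either strand (TTCCT in the reverse direction), the core bound by ETS factors, a family known for its role in endothelial transcription. Egfl7 has 3 annotated starts, of which the first and second are shown.
Esm1, chr13:113209409-113209658: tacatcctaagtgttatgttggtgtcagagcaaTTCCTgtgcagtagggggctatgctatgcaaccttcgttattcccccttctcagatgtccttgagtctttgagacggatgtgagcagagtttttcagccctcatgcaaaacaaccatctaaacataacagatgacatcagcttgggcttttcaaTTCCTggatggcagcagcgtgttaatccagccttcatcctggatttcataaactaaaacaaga
Emcn, chr3:137340828-137341077: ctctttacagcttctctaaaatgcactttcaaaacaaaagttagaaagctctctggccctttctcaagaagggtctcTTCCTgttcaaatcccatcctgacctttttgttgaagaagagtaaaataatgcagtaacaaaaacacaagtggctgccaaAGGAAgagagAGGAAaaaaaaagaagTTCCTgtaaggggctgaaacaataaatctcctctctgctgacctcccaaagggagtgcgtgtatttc
Egfl7, first start, chr2:26580833-26581082: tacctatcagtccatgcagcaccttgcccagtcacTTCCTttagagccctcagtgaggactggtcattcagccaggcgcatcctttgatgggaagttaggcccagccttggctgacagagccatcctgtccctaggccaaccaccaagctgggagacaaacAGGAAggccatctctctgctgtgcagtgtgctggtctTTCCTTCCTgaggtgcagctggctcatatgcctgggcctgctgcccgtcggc
Egfl7, second start, chr2:26583615-26583864: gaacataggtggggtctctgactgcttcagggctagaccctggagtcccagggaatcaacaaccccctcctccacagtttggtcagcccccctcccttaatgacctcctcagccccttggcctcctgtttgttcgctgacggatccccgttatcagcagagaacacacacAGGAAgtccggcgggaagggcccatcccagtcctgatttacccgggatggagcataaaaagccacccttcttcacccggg

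The window of Esm1 held 2 matches, that of Emcn 4, the first window of Egfl7 4 (the last 2 share a base), its second window 1 and the window of its last start 0. Of 32851 windows of the same length in the table, 60.3% held at least 1 match and 9.02% held 3 or more, so a match by itself sets no gene apart. ACAAT, the core bound by SOX factors, was searched on both strands. Of these windows it matched only that of Emcn, on the plus strand, and 27.7% of all windows held a match. The motif AGATAA, bound by factors of the GATA family, and the TATA box, TATAAA, were searched on both strands and matched none of these windows, against 9.99% and 12.4% of all windows. GC content was 44.0% in the window of Esm1 and 40.8% in that of Emcn, against 58.0%, 58.4% and 63.2% in the Egfl7 windows and a median of 52.4% over all windows. A match or its absence here describes letters in a window and not binding.

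Esm1 had the widest span of the 4 genes. Its log2 ratios were 0.20, 0.08, 0.09 and 0.19 on the 4 arrays of W1. They were 0.38, 0.67, 0.51 and 0.58 in W2, and 0.72, 0.77, 0.56 and 0.91 in W4. In W3 they were -0.10, 0.15, -0.28 and 0.37. All arrays of W2 and W4 lay on side A and above every array of W1 and W3, while W2 and W4 overlapped each other. The arrays of W3 straddled W5. How often the arrays of different mice separate in this way over all genes was not counted, here or for the genes below. The fitted values were 0.14, 0.54, 0.04 and 0.74 in W1 to W4, each with a standard error (SE) of 0.08 over n = 4 arrays. W4 and W5 were thus 1.67-fold apart, and W4 and W3 1.63-fold apart. An SE here and below comes from 1 variance per probe, shared by the arrays of all mice. In limma this variance is moderated toward a value common to all probes. The SE is not the spread within the mouse it is given for. The SD of Esm1 over the arrays of a mouse was 0.06 in W1 and 0.28 in W3. Along the axis, from side A to side B, the kidneys lay in the order W4, W2, W1, W3 and W5, and the arrays of neighbouring kidneys overlapped for W4 and W2, for W1 and W3, and for W3 and W5. In W3 the orientations disagreed, with a mean of -0.19 where W3 was in channel 1 and 0.26 where it was in channel 2. In W2 these means were 0.44 and 0.63, and in W4 they were 0.64 and 0.84.

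Emcn had nearly the same profile as Esm1. Its log2 ratios were 0.55, 0.39, 0.57 and 0.52 on the arrays of W2, and 0.62, 0.55 and 0.57 on the 3 arrays of W4 that had a value. In W1 they were 0.06, -0.12, 0.03 and 0.14, and in W3 they were 0.31, 0.02, -0.28 and 0.10. The arrays of W2 and W4 overlapped each other and lay clear of those of W1 and W3, which both straddled W5. The fit gave 0.51 ± 0.08 in W2 and 0.59 ± 0.10 in W4 (SE, n = 4 and n = 3 arrays), against 0.03 ± 0.08 in W1 and 0.04 ± 0.08 in W3. The widest distance, between W4 and W5, was 1.50-fold. Array 3 of W4 gave no value for Emcn and is left out of its fit. Between W2 and W4 the distance was 0.08 ± 0.13, so these kidneys were not told apart by Emcn.

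**Figure D1:**
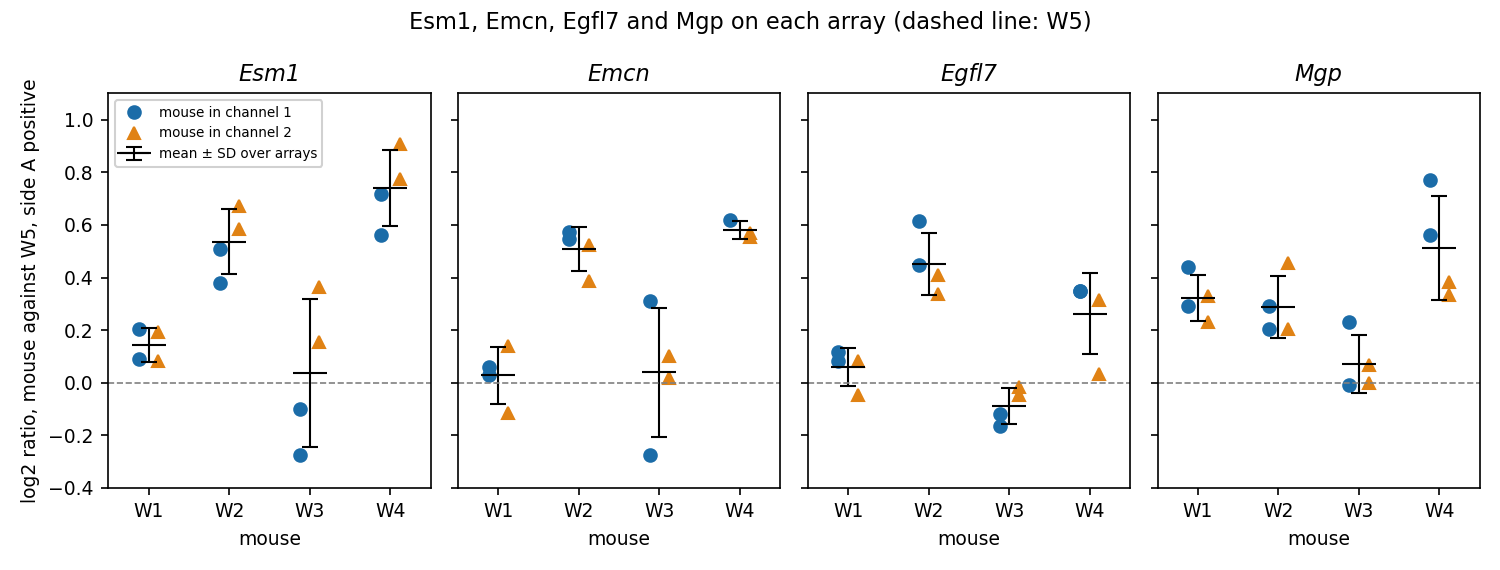
Log2 ratio between the mouse and W5 on each array (y axis, side A positive, dashed line at W5) for Esm1, Emcn, Egfl7 and Mgp, by mouse (x axis). Circles are arrays with the mouse in channel 1, triangles those with it in channel 2, and bars the mean ± SD over the 4 arrays (3 for Emcn in W4). The arrays of W2 and W4 lie clear of those of W3 for Esm1, Emcn and Egfl7, and those of W4 do for Mgp. The share of all genes with such a separation was not counted.

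Egfl7 put W2 rather than W4 at the far end. Its log2 ratios were 0.45, 0.41, 0.61 and 0.34 on the arrays of W2 and 0.35, 0.32, 0.35 and 0.03 on those of W4. They were 0.08, -0.05, 0.12 and 0.08 in W1, and -0.17, -0.02, -0.12 and -0.05 in W3. W3 was on side B on all 4 arrays (8.98% of named genes), the only such case among the 4 genes, and no array of W2 or W4 was. The fitted values were 0.45 in W2, 0.26 in W4, 0.06 in W1 and -0.09 in W3, each ± 0.07 (SE, n = 4 arrays). W2 and W3 were 1.45-fold apart. The arrays of W2 and W4 overlapped, and so did those of W4 and W1. With 1 array left out at a time, the value of W4 ran between 0.23 and 0.33.

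Mgp lay farther from W5 in W1 than the other 3 genes did. Its log2 ratios were 0.29, 0.33, 0.44 and 0.23 on the arrays of W1, which lay on side A throughout (as did those of Esm1, and of 9.03% of named genes), and 0.20, 0.20, 0.29 and 0.46 on those of W2. W4 had 0.77, 0.38, 0.56 and 0.33, and W3 had 0.23, -0.0024, -0.0088 and 0.07. The arrays of W4 lay above those of W3 without overlap. Those of W1 barely did, with the lowest of W1 at 0.2311 and the highest of W3 at 0.2306. W1, W2 and W4 overlapped one another, and W2 overlapped W3. The fitted values were 0.32, 0.29, 0.07 and 0.51 in W1 to W4, each ± 0.08 (SE, n = 4 arrays), a span of 1.43-fold. In W4 the mean was 0.66 with the mouse in channel 1 and 0.36 with it in channel 2. With 1 array left out at a time, the value of W4 ran between 0.44 and 0.56.

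**Figure D2:**
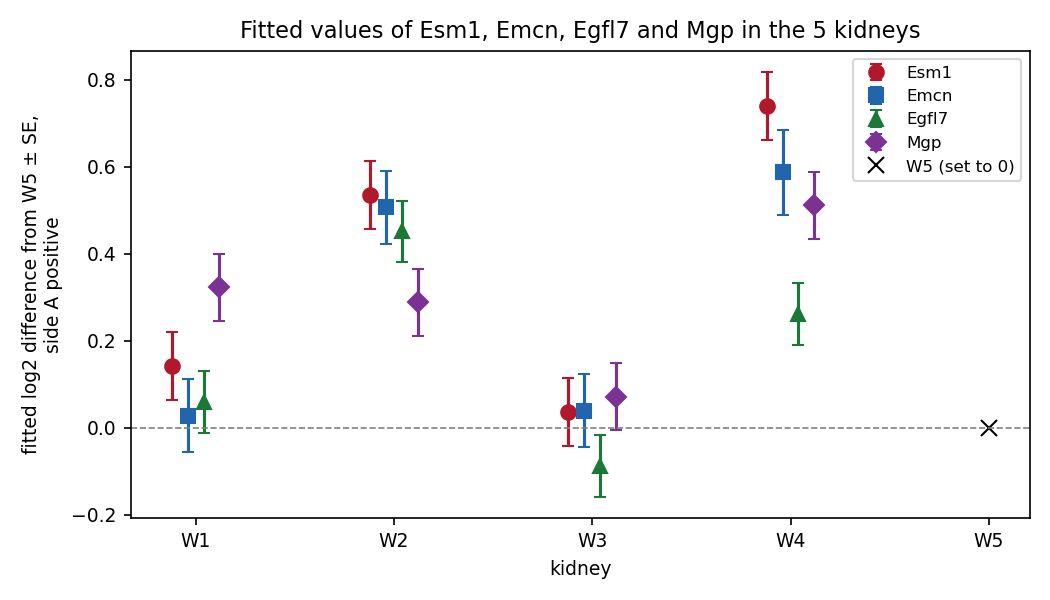
Fitted log2 difference from W5 ± SE (y axis, side A positive) of Esm1, Emcn, Egfl7 and Mgp in W1, W2, W3, W4 and W5 (x axis), with W5 set to 0. Esm1, Emcn and Egfl7 lie between 0.26 and 0.74 in W2 and W4 and between -0.09 and 0.14 in W1 and W3, while Mgp lies at 0.32 in W1.

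The 4 genes shared a place near W5 in W3, with fitted values between -0.09 and 0.07, and a place on side A in W2 and W4, with values between 0.26 and 0.74. W1 separated Mgp, at 0.32, from the others, at 0.03 to 0.14. The limma F test over the 5 kidneys called 4 of the 4 genes at an adjusted p under 0.05, where 4.20% of the 8005 named genes tested were called. Without mouse W2, Emcn and Egfl7 were not called. Among W1 to W4, Esm1, Emcn and Egfl7 were called and Mgp was not (0.824% of named genes). This call held in 24 of 26 alternative settings for Esm1, but in 4 of 22 for Emcn and 4 of 26 for Egfl7. On side A, 3 genes were called in W2 (Esm1, Emcn and Egfl7, background 1.30%) and 3 in W4 (Esm1, Emcn and Mgp, background 1.42%), and none of the 4 in W1 or W3. On every measured array of W2 and of W4 the 4 genes lay on side A, as did 10.5% and 8.28% of named genes. These calls are part of how the genes were chosen, and nothing is read from them. By the size of their span, Esm1 was number 227 of 15715 probes, Emcn 586, Egfl7 826 and Mgp 1016. Their residual SDs between arrays were 0.131, 0.152, 0.104 and 0.129, against a median of 0.195 over all probes.

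Over arrays, with the dye term removed, Esm1 and Emcn had a Pearson correlation of 0.889 (n = 15 arrays). Esm1 and Egfl7 had 0.748, and Emcn and Egfl7 0.732. The correlations of Mgp were 0.659 with Esm1, 0.565 with Emcn and 0.439 with Egfl7. These points are arrays of 4 mice that share W5, so they mostly repeat the differences between mice. Among residuals within mice, the correlation was 0.457 for Esm1 and Emcn and between 0.0270 and 0.342 for the other 5 pairs. Residuals of 2 probes on the same array also share whatever is particular to that hybridisation.

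The genes whose values ran most like each of the 4 were found by the same correlation among 7517 other named genes with values on at least 15 arrays. A constant distance from W5 does not alter this measure, so a gene can be alike and still lie elsewhere relative to W5. For Esm1 they were Igfbp3, a carrier of insulin-like growth factors (r = 0.941), Scd1, a fatty acid desaturase (0.936), Fbln5, an elastic fibre protein (0.916), Ddah1, which breaks down an inhibitor of nitric oxide synthase (0.912), and Abca13, a lipid transporter (0.896). Scd1 lay at -0.75, -0.13, -0.62 and 0.12 in W1 to W4. For Emcn they were Fbln5 (0.890), Esm1 (0.889), the class II histocompatibility gene H2-Aa (0.885), the lipid phosphatase gene Plpp1 (0.885) and Igfbp3 (0.877). Esm1 was thus number 2 for Emcn, while Emcn was number 6 for Esm1.

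For Egfl7 the list was Dnase1, a secreted nuclease (0.934), Mmrn2, an endothelial matrix protein (0.867), Ehd3, a membrane trafficking protein of glomerular endothelium (0.861), Gas1 (0.859) and Hsd3b4, a steroid dehydrogenase (0.854). Dnase1 lay at 0.24, 0.64, 0.03 and 0.42 in W1 to W4. For Mgp it was the organic anion transporter gene Slco2b1 (0.865), the endothelial surface gene Cd300lg (0.827), Pja2, a ubiquitin ligase (0.819), Mttp, a lipid transfer protein (0.814), and Fhl2, a LIM domain protein (0.799). Fhl2 lay at 0.22, 0.49, -0.17 and 0.50 in W1 to W4. None of these values tests a shared control of the genes.

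Few other endothelial genes passed the test over the 5 kidneys. Of 50 further genes listed as endothelial, 28 had a probe that names them alone and 21 had enough values to be tested. No single-gene probe was named for Pecam1, Cdh5, Kdr and Tek. The F test over the 5 kidneys called 1 of 21, which is near the 4.20% of all named genes. It was Mmrn2, which binds VEGF in the matrix, at -0.06, 0.32, -0.11 and 0.21 in W1 to W4 (SE 0.07 each, limma adjusted p = 0.0292). It lost its call in 8 of 26 alternative settings, among them 3 that left out 1 array of W2 and every one that left out a whole mouse. The list still leaned to side A in the kidneys where Esm1 and Emcn did. Its median was 0.14 in W2 and 0.15 in W4, against 0.00964 and 0.0031 for all named genes, and 0.0028 in W1 and -0.04 in W3. In W4, 18 of 21 (85.7%) lay on side A, against 51.0% of all named genes, and in W2 it was 16 of 21 (76.2%) against 53.0%. In W1 it was 12 of 21 (57.1%, against 46.6%) and in W3 8 of 21 (38.1%, against 52.5%). At an unadjusted p under 0.05 there were 9 of 21 (42.9%), against 18.2% of all named genes. The list was drawn up with earlier results known and its genes may vary together, so these shares are a description. In W2 the lean was not particular to this list. Of the lists given below, 27 of 32 matrix genes (84.4%) lay on side A in W2. So did 13 of 16 VEGF, angiopoietin and Notch genes (81.25%) and 12 of 15 genes around Mgp (80.0%). In W4 these shares were 71.9%, 50.0% and 40.0%.

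Among the uncalled endothelial genes, Plvap, which forms the diaphragms of fenestrated capillaries, had 0.40 ± 0.14 in W2 and 0.23 ± 0.14 in W4, and -0.35 and -0.21 in W1 and W3 (limma adjusted p = 0.109). Cd34, a sialomucin of capillaries, had 0.20 and 0.27 ± 0.08 in W2 and W4, and -0.0046 and -0.03 in W1 and W3 (limma adjusted p = 0.176). Sparcl1, a matricellular protein, had 0.31 in W2 and 0.19 in W4, 0.18 in W1 and -0.22 in W3. Vwf, the von Willebrand factor of larger vessels, had a value of -0.11 in W2 and 0.33 in W4 (limma adjusted p = 0.463). Adgrl4, an adhesion receptor of endothelium, had the widest span of the 21 but the arrays of a mouse scattered, with 0.76 ± 0.22 in W4 and -0.09 ± 0.19 in W2 (limma adjusted p = 0.147). Rasip1, a regulator of vessel lumen formation, was called in W2 alone and on side B, at -0.51 ± 0.12 (limma adjusted p = 0.035 for W2, where 1.19% of named genes were called on side B, and 0.127 over the 5 kidneys). The endothelial genes on side B in W4 were Fli1, an ETS factor, at -0.25, Prox1 at -0.15 and Esam at -0.04. Fli1 had 0.01 in W2 and -0.32 in W3 (limma adjusted p = 0.157), and Esam lay on side B in every mouse. For Flt1, a VEGF receptor, the 2 probes disagreed: the one used in the count was not called (0.18 in W2 and 0.17 in W4, adjusted p = 0.406). The other probe was called, with 0.12, 0.46, -0.12 and 0.45 in W1 to W4 (limma adjusted p = 0.00393).

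**Figure D3:**
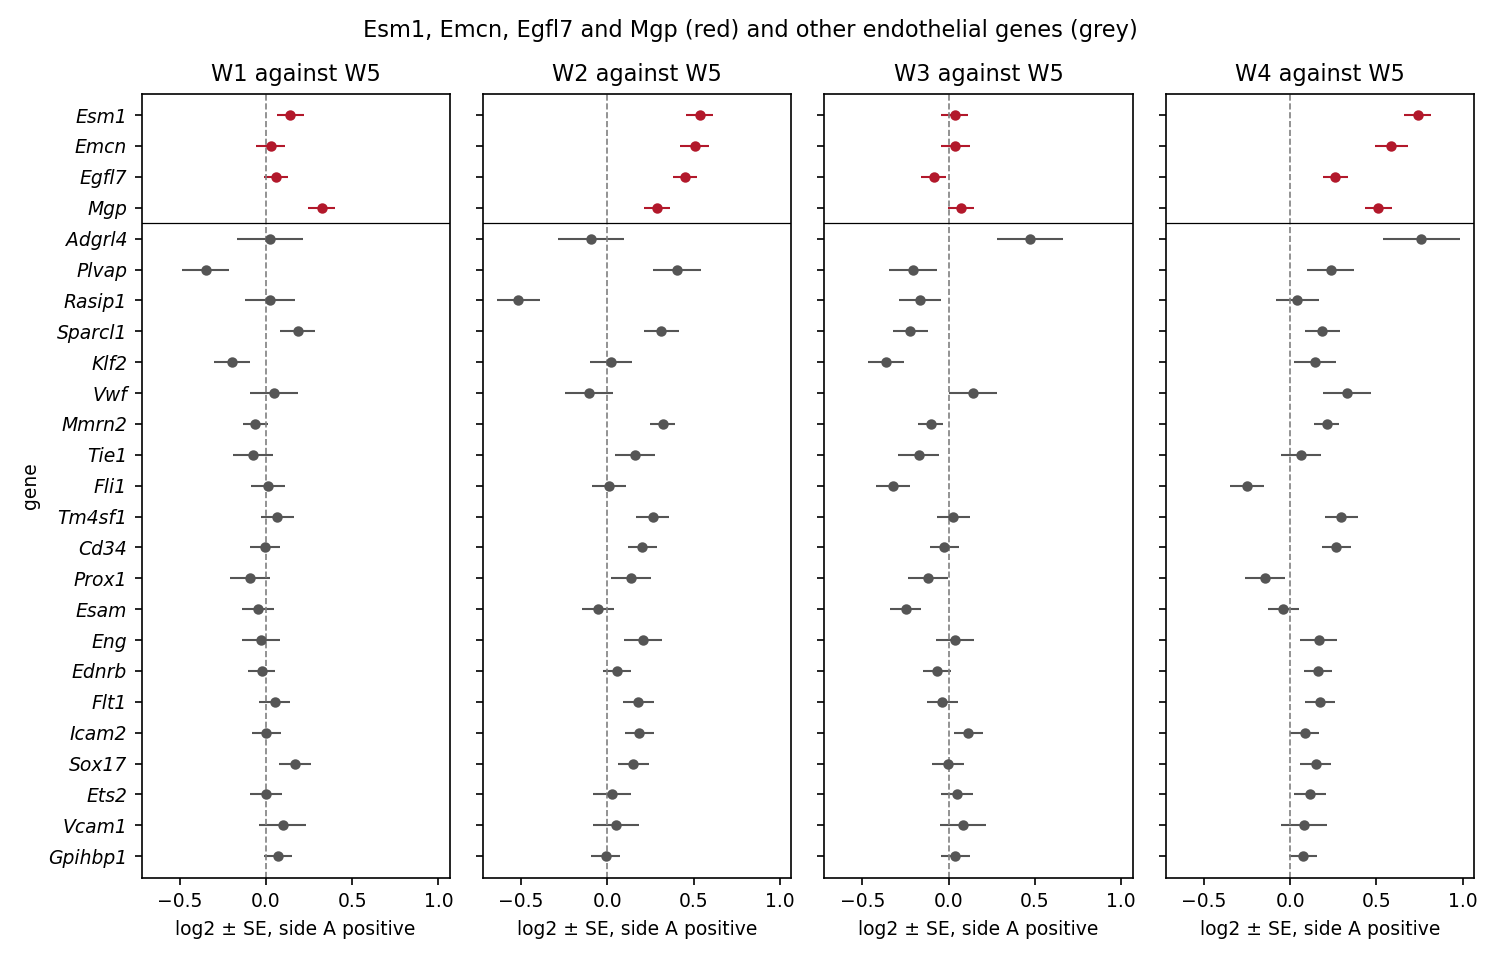
Fitted log2 difference from W5 ± SE (x axis, side A positive, dashed line at W5) of each mouse for Esm1, Emcn, Egfl7 and Mgp (red, above the line) and 21 other endothelial genes (grey), ordered by span. In W4, 18 of the 21 lie on side A, and in W3 8 of the 21 do.

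In the VEGF, angiopoietin and Notch pathways, 2 of 16 genes tested were called (12.5%, against 4.20%), and both are co-receptors of VEGF. Nrp2 had the profile of Esm1, at -0.00028, 0.39, 0.01 and 0.54 in W1 to W4 (SE 0.12, limma adjusted p = 0.029), but it lost its call in 9 of 26 alternative settings. Nrp1 lay on side A in all 4 mice, at 0.33, 0.25, 0.33 and 0.49 (limma adjusted p = 0.00683), and kept its call in the 19 settings that gave it a value. The ligands and oxygen sensors were not called. Vegfa, the main ligand, had 0.18 in W2 and -0.22 in W4, and Vegfb 0.11 and -0.13 in these mice. The Notch receptor Notch1, the ligands Dll4 and Jag1 and the transcription factor Rbpj were not called, nor was the receptor Notch3, which is listed with the pericyte genes.

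Few genes of the muscle cells around the endothelium were called, and more of its matrix. Of 14 smooth muscle and pericyte genes, Mylk, myosin light chain kinase, was called (7.14%, against 4.20%), with 0.16, 0.32, 0.12 and 0.13 in W1 to W4 (limma adjusted p = 0.0407), and in 18 of 26 settings the call was lost, among them the replicate block (adjusted p = 0.0615). Acta2, the smooth muscle actin, had -0.18, 0.10, 0.08 and -0.15 in W1 to W4. In W4 alone, 2 genes of this list were called on opposite sides. Cspg4, a proteoglycan of pericytes, had the widest span of the list, with -0.10, 0.25, 0.02 and 0.74 in W1 to W4 (limma adjusted p = 0.0213 for W4, and 0.0592 over the 5 kidneys). Myh11, the smooth muscle myosin, had -0.41 in W4 (limma adjusted p = 0.049 for W4, and 0.14 over the 5 kidneys). In W4, 1.42% of named genes were called on side A and 0.899% on side B. The medians of this list were -0.07, 0.08, 0.02 and -0.04 in W1 to W4. Of 32 matrix genes tested, 6 were called (18.8%, against 4.20%), namely Fbln5, Emilin1, Col3a1, Col6a3, Dcn and Timp2. Counting a gene where any of its probes was called, an alternative chosen after seeing the data, added Col1a2, Fn1 and Sparc, for 9 of 32 (28.1%) against 4.66% of all named genes. The same count gave 2 of 21 endothelial genes (9.52%) and 3 of 16 VEGF, angiopoietin and Notch genes (18.75%), with Flt1 added to both. It gave 3 of 12 leukocyte genes (25.0%), with Lyz2 added, and left the other lists unchanged.

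Fbln5, which ties elastic fibres to cells, lay on side A at 0.70, 1.22, 0.48 and 1.21 in W1 to W4 (SE 0.07, limma adjusted p = 2.89e-10). Col6a3, a chain of the beaded collagen VI, had 0.22, 0.56, 0.04 and 0.46 (limma adjusted p = 0.0017), and Dcn, the proteoglycan decorin, 0.01, 0.44, 0.15 and 0.47 (limma adjusted p = 0.0246). Emilin1, an elastic fibre glycoprotein, was highest on side A in W2, at 0.36. In Timp2, a metalloproteinase inhibitor, W1 stood with W4 as in Mgp, at 0.25, 0.18, -0.09 and 0.30 in W1 to W4 (limma adjusted p = 0.0183), but its other probe was not called (adjusted p = 0.661). Col3a1, a fibrillar collagen, had its far end in W1, at 0.36 with 0.0032 in W3. Of 26 settings, Col3a1 lost its call in 11, among them the replicate block (limma adjusted p = 0.0616), Dcn in 5 and Timp2 in 3, while Emilin1 lost it in 9 of 22, and Fbln5 and Col6a3 kept theirs in every setting run. Sparc, a matricellular protein with 3 probes, had 0.48, 0.58, 0.05 and 0.68 on the probe of widest span (limma adjusted p = 8.76e-06), 0.40, 0.36, 0.26 and 0.47 on another, and 0.17, 0.11, -0.02 and 0.38 on the one used in the count, which was not called.

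Around Mgp itself, 2 of 15 genes of carboxylation, mineralisation and bone morphogenetic protein (BMP) signalling were called (13.3%, against 4.20%). Id3, a target of BMP signalling, lay at 0.29, 0.17, -0.38 and 0.20 in W1 to W4 (SE 0.10, limma adjusted p = 0.0338). Bmp6, a ligand of the family, had 0.45 in W2, and -0.25, -0.28 and -0.06 in W1, W3 and W4 (limma adjusted p = 0.0474). Id3 lost its call in 11 of 26 settings and Bmp6 in 14 of 22. Vkorc1, which recycles the vitamin K that carboxylation of matrix Gla protein needs, had 0.14 in W2 and 0.07 in W4 and was not called.

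Genes of other cell types also varied between these kidneys. Their lists, like those above, were drawn up with earlier results of these data known, so the shares called are a description. Of 5 glomerular genes tested, 3 were called (60.0%, against 4.20% of all named genes): Podxl, a surface sialomucin of podocytes and endothelium, at 0.40, 0.68, 0.04 and 0.47 in W1 to W4, Ehd3 at 0.08, 0.36, -0.09 and 0.29, and Npnt at -0.14, -0.15, -0.19 and -0.29. The call of Ehd3 was lost in 7 of 26 settings, among them the replicate block (limma adjusted p = 0.0509), and its other probe was not called (adjusted p = 0.624). The podocyte genes Synpo and Ptpro were not called, at -0.05 and 0.11 in W2 and -0.15 and -0.02 in W4. Among 13 proximal tubule genes 7 were called (53.8%, against 4.20%), in both directions: Slc34a3, Slc17a3, Ass1 and Slc7a7 reached 0.38, 0.52, 0.33 and 0.39 on side A, and Slc5a1 and Slc22a7 reached -0.43 and -0.53 on side B. Ass1 lost its call in 20 of 26 settings. Aqp1 lay at 0.17 in W2 and -0.30 in W4. Their list medians were 0.16 in W2 and -0.07 in W4. Of 9 genes of the loop, distal tubule and collecting duct, 3 were called (33.3%, against 4.20%), with Aqp2 at -0.54 in W4, Foxi1 at -0.29 in W3 and Slc26a4 at 0.38 in W2. Slc26a4 lost its call in 7 of 26 settings, 3 of which left out 1 array of W2. The list median was 0.0126 in W2 and -0.17 in W4.

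Of 12 leukocyte genes, the class II genes H2-Aa and H2-Eb1 were called (16.7%, against 4.20%), at 0.46 and 0.38 in W2 and 0.46 and 0.44 in W4, with a list median of -0.0123 in W2 and 0.09 in W4. Of 6 adipocyte genes, 5 were called (83.3%, against 4.20%): Fabp4, Cidec, Plin4, Car3 and Lpl lay at -0.67, -0.36, -0.46, -0.34 and -0.49 in W2, with a list median of -0.41 in W2 and -0.30 in W4. The 1 red cell gene tested was not called. The part of these other cell types in the values of Esm1, Emcn, Egfl7 and Mgp was not tested.

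**Figure D4:**
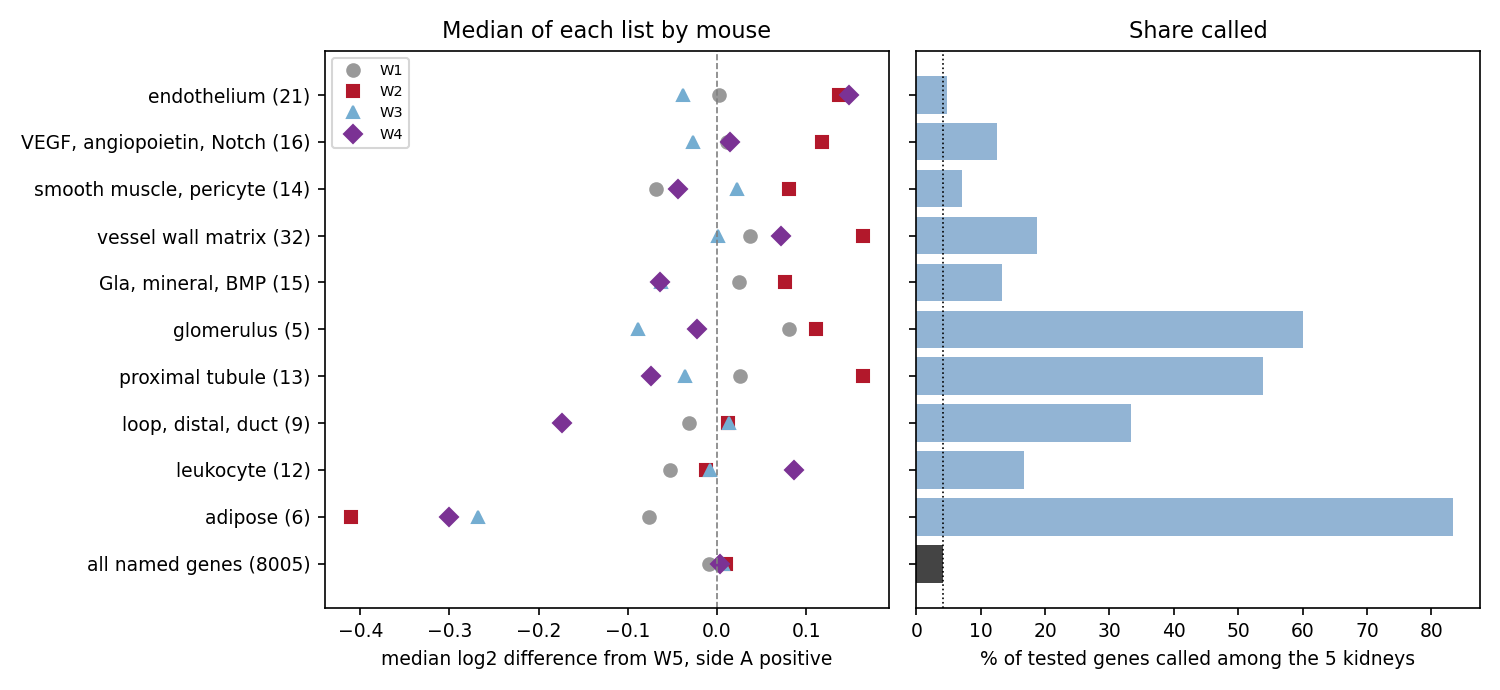
Left, median log2 difference from W5 (x axis, side A positive) of each gene list (y axis, number of genes tested in brackets) in W1, W2, W3 and W4. Right, percent of the tested genes of each list called over the 5 kidneys by the limma F test, with the dotted line at all named genes. The endothelial list has medians of 0.14 in W2 and 0.15 in W4 with 1 of 21 genes called, while 6 of 32 matrix genes were called.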

How the data were processed

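Per the labels, slides were read on a GenePix 4000A scanner with GenePix Pro 3.0, and the authors subtracted background from mean intensities and scaled each array to a median ratio of 1. The deposited values are taken as log2 ratios. The commonest value of an array was taken as a 1:1 ratio, and 1.55% to 4.90% of values then matched, to 2e-06, the log2 of small whole-number ratios (integers to 12; at most 0.0342% for natural logs and 0.123% for log10). The filter behind empty cells is not given in the sources used here.

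A limma 3.58.1 model in R 4.3.3 held 4 mouse coefficients and a gene-specific dye term on 16 arrays. F tests asked for any difference over the 5 kidneys or among W1 to W4, two-sided moderated tests set each mouse against W5, and Benjamini-Hochberg adjustment covered 15715 probes. The code was tested on simulated data. For arrays, the number of hybridisations and kidneys limits the precision. A gene with several probes was counted by the probe with most values, then the first identifier. Named were Esm1, Emcn, Egfl7 and Mgp, every list gene called, 6 defining endothelial genes and the 5 most alike genes of each; other uncalled list genes were named after their values were seen. Genes and lists were chosen with earlier results of these data known. RefSeq (GRCm38.p6) gave promoter windows for 3 genes, cut to 250 bases before the start. Alternatives left out the dye term, an array or a mouse, weighted or rescaled arrays, or replaced the dye term by a block on replicate number. Others took medians over the arrays of a mouse or changed the filter on missing values.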

Additional observations from a re-analysis of the deposited data

Results flagged for a closer look

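One array stood far from the other 3 of its mouse: Egfl7 lay at 0.0341 on the fourth array of W4, against 0.32 to 0.35 on the others, a gap of 0.89 of the whole range. Chance gives about 1 such case in 20 groups, and 15 groups of 4 arrays were examined.

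Egfl7 lay on side A on all arrays of W2 and W4 and on side B on all arrays of W3. The fitted distance between W2 and W3 was 0.54, and that between W4 and W3 was 0.35. Neither difference was tested on its own. The call of Egfl7 among W1 to W4, which covers both, is part of how the gene was chosen.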

How the results depend on the processing

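The spans of Esm1, Emcn, Egfl7 and Mgp moved by less than 1 SD between arrays in the settings tried, except that Esm1 fell to 0.54 and Mgp to 0.32 without mouse W4, and Egfl7 to 0.35 without mouse W2. With 1 array left out, the spans ran from 0.71 to 0.79 in Esm1, 0.58 to 0.63 in Emcn, 0.49 to 0.58 in Egfl7 and 0.44 to 0.56 in Mgp. The cause was not tested for any change given here, beyond the smaller number of arrays where some were left out. Without the dye term, the probes called numbered 403 over the 5 kidneys (629 with it), 62 among W1 to W4 (110), 225 in W2 against W5 (368) and 188 in W4 (316). With array weights there were 240 among W1 to W4, 314 in W1 (125 without weights), 243 in W3 (93) and 147 in W4, and with a common median absolute deviation 236 in W1 and 181 in W4. Without mouse W1 or W2 the 5-kidney count was 366 or 331. The count among the mice left was 52, 55, 50 and 63 without W1, W2, W3 and W4. Without mouse W1 there were 221 calls in W2, 59 in W3 and 178 in W4, and without W4 there were 160 in W3. With 1 array left out, the counts ran from 468 to 692 over the 5 kidneys, from 70 to 120 among W1 to W4, from 58 to 137 in W1, from 194 to 476 in W2, from 43 to 121 in W3 and from 163 to 393 in W4. Counts fell by over 1.5 times without array 2 of W3 (among W1 to W4), arrays 1, 3 or 4 of W1, 1 or 4 of W2, 2 or 4 of W3 and 1, 3 or 4 of W4 (each in its own mouse). Arrays with the same replicate number also share their orientation. Of 24 same-numbered pairs of arrays, 21 had a correlation of deviations over 0.1 (lowest 0.0863). After the dye term was removed, 1 of 24 did (lowest -0.253). That term was fitted to these same arrays, so part of the drop is built in. The replicate block took the place of the dye term and takes in orientation, so it is no separate check on it. With the replicate block, 591 probes were called over the 5 kidneys and 97 among W1 to W4, and Esm1 kept a span of 0.74. Of the list genes, Mylk, Col3a1 and Ehd3 lost their calls under the block and no other called one did. Residual SDs over the arrays of W4 were 0.208 to 0.231, against 0.153 to 0.174 in W1. Signal over background was not analysed here.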
